A study of Mus musculus with 34 samples.

Results

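Ear skin mast cells (MCs) of 3 untreated wild-type (WT) mice are described here at rest. The members were selected on measured values, as the cells of the 12 WT libraries that held more than 1000 transcripts and at least 1 transcript of *Cpa3*, the gene of the granule enzyme carboxypeptidase A3. They numbered 880 of 904 WT cells over 1000 transcripts and of 2807 such cells in the whole series, with 317, 293 and 270 cells from WT mice 1, 2 and 3. Each mouse was measured in 4 libraries of 58 to 83 members.

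The WT mice were 7-week-old males of the strain C57BL/6J Mcpt5-Cre R26LSLYFP, heterozygous for the Cre and with intact *Tln1*, and were littermates of the knockouts. The study kept these crosses on an albino C57BL/6J background, homozygous for a *Tyr* allele, and its other strains on C57BL/6J. Tln1KO mice of the same age and sex carried *Tln1* fl/fl beside the same Cre and reporter, and gave 279, 350 and 934 cells under the same rule. Both groups therefore carried the Cre and the YFP reporter. Cells were sorted from digested ears as CD45+ Lin- YFP+, where Lin stood for markers of T cells, B cells, natural killer cells and CD11c+ cells, so that only cells in which the *Mcpt5* (*Cma1*) promoter had driven Cre could be seen. The reference was 330 CD45- GFP+ ear skin cells over 1000 transcripts from Myh11-GFP mice, which the study used for vascular smooth muscle cells and pericytes. Their 4 libraries come from a number of mice that is not given in the sources used here, so that they were treated as 1 sample and no test was made against them. All reference cells were in libraries of their own, and differences of cell type, mouse strain and library cannot be told apart there.

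MCs are tissue-resident immune cells that store proteases, histamine and other mediators in granules, bound to the proteoglycan serglycin and its heparin chains. They release these stores within minutes when antigen crosslinks IgE on the receptor FcεRI, or when peptides reach receptors of the MRGPR family, and they make lipid mediators and cytokines more slowly. Growth and survival in the skin depend on stem cell factor and its receptor KIT. Connective tissue MCs, the type found in skin, are known for chymases and tryptases together with carboxypeptidase A3.

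Levels are given as transcripts per 10000 outside predicted genes named Gm and a number, from the sum over the members of a mouse, and each transcript stands for 1 captured 3′ end, so that levels of different genes compare without a correction for length. The Gm genes were set aside because they took 50.3, 36.7 and 57.7% of the transcripts of WT mice 1, 2 and 3 and 18.6% of those of the reference. *Gm10800* alone, on chromosome 2 of GRCm38 from 98666547 to 98667301, took 39.4, 29.0 and 47.5% in the 3 mice and 12.1% in the reference. Members had a median of 5017 transcripts, of which 2240 lay outside Gm genes, against medians of 4593 and 3915 in the reference. The members of the 3 mice held 1717985, 1811427 and 1652170 transcripts. Between 46 and 78 cell barcodes recurred in each of the 30 pairs of WT libraries that used the same 96 barcodes, and no 2 cells held identical values.

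*Cpa3*, which chose the members, was at 157, 133 and 138 transcripts per 10000 in WT mice 1, 2 and 3 (143 ± 12.4, SD, n = 3). It is encoded on chromosome 3 from 20215620 to 20242181. As a gene of the rule its level is a description. There were 35 members with exactly 1 *Cpa3* transcript just inside the rule, and 24 cells with none just outside it. *Mcpt4* was at 131 transcripts per 10000 in the former and at 132.6 in the latter, against 345 in members with more *Cpa3*, and a Gm share of 84.7 and 86.8% went with it, against 39.9%. The cells on both sides of the rule's edge were therefore alike in *Mcpt4* and poor in transcripts outside Gm genes, with medians of 585 and 486 transcripts against 2336.

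The 5 markers of the label were each at or above 9.80 transcripts per 10000 in each mouse. *Mcpt4*, the main chymase of connective tissue MCs, was the most abundant gene outside mitochondrial, ribosomal protein and Gm genes, at 296, 349 and 390 (345 ± 47.0). *Cma1*, another chymase and the gene of the *Mcpt5* promoter behind the sort, was at 151, 127 and 131 (136 ± 12.9). The tryptase *Tpsb2* was at 78.6, 71.9 and 85.1 (78.5 ± 6.62) and the receptor *Kit* at 14.9, 10.3 and 9.80 (11.7 ± 2.84). Thus *Mcpt4* stood above *Cpa3* and *Cma1* in each mouse by more than the spread between mice, *Cpa3* stood above *Cma1* in each mouse by less than either gene varied between mice, and *Tpsb2* and then *Kit* were lower. Of the 5, *Cpa3* chose the members and *Cma1* lay behind the sort, so neither bears on the label. The label rests on *Mcpt4*, *Tpsb2* and *Kit*, which stood at these levels in all 3 mice.

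Genes of granule content opened the list of leading genes. The 25 genes with the highest mean level, with mitochondrial, ribosomal protein and Gm genes left out, opened with *Mcpt4*, *Cpa3*, *Cma1* and *Tpsb2*, and *Hdc*, the enzyme that makes histamine, followed at 65.2, 52.2 and 62.9. *Serpinb1a*, an inhibitor of serine proteases, was at 64.3, 54.2 and 53.7, and *Apoe*, a lipid carrier, at 48.9, 64.5 and 66.4. *Vim*, an intermediate filament, was at 47.5, 66.0 and 62.2. Others in the 25 were the serglycin core *Srgn*, the tryptase *Tpsab1*, the transcription factor genes *Jun* and *Jund*, the autophagy receptor *Sqstm1*, the lamin *Lmna*, the cell cycle inhibitor *Cdkn1a*, and *Ndrg1*, *Ago2*, *Basp1* and *Ahnak*. The collagen gene *Col1a1*, a fibroblast marker described further on, was also among them. The rest of the 25 were *Actb*, *Malat1*, *Eef1a1*, *Tpt1* and *A430073D23Rik*, at means of 54.5, 52.2, 34.2, 32.9 and 30.7. In the reference, *Vim* was at 35.7 and *Apoe* at 13.5, so that high levels were not limited to MCs for each leading gene.

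**Figure D1:**
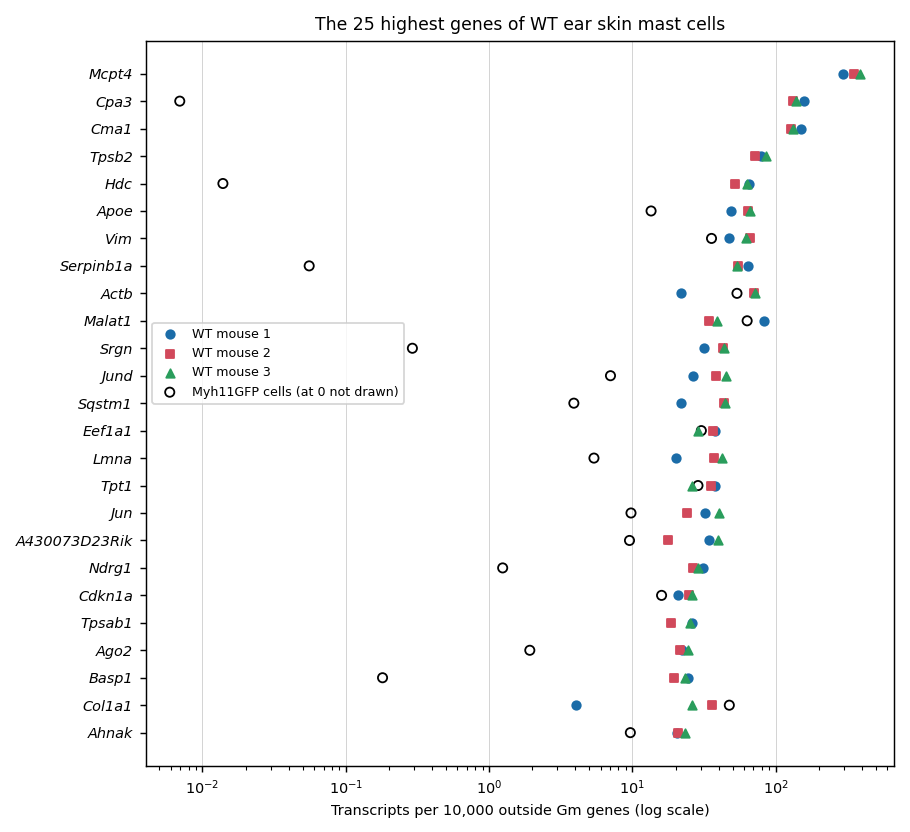
Levels of the 25 leading genes in WT MCs, in transcripts per 10000 outside Gm genes on a log axis, with 1 filled point for each of 3 mice and an open point for the reference. *Mcpt4* leads at 296 to 390 in the 3 mice, and genes at 0 in the reference have no open point.

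The transcriptome of each mouse had a few very high genes and a long range of low ones. Genes at or above 1 transcript per 10000 numbered 1733, 1596 and 1620 in WT mice 1, 2 and 3, and 1301 of them passed this level in every mouse. Only 80 reached 10 in every mouse, whereas 12301 genes outside Gm were detected in every mouse. The leading 10 genes held 14.2, 15.7 and 15.8% of transcripts outside Gm genes, and 50% was reached with 402, 303 and 299 genes. Mitochondrial genes took 9.74, 12.1 and 11.5%.

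Against the reference, a gene was called where each of the 3 WT mice was at least 4-fold above or below it, among the 9901 genes with 30 or more transcripts in both together. A reference of fewer than 3 transcripts was set to 3, and where the reference held none, folds are given for the lowest of the 3 mice against these 3 transcripts over the group, as "at least". Of all genes tested, 770 (7.78%) were called higher and 880 (8.89%) lower, which is 46.7 and 53.3% of the calls. With Gm genes kept in the totals, 489 genes were higher and 1205 lower, 28.9 and 71.1% of the calls, and the median log2 fold of all genes moved from 0.07 to -0.58, a shift of -0.65. Of the 1301 genes at 1 or more in every mouse, 287 were called higher, 8 lower and 1006 neither. The 80 genes at 10 or more comprised 25 called higher and 55 called neither. Without the 61 members that carried more than 1% of their transcripts from markers of other cell types, 785 genes were higher and 1017 lower. Hence most of the genes that WT MCs carried at these levels were within the 4-fold limits of the reference in at least 1 mouse.

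Granule proteases set the members apart most plainly. Together they made up 7.26, 7.17 and 7.93% of transcripts outside Gm genes in the 3 mice, against 1 transcript in all reference cells. Of 14 listed genes 13 were in the tables, 11 were abundant enough to be compared, and each of these 11 was called higher (background 7.78%). *Cpa3* is among the 11 and in the share, and its call was fixed by the choice of members. The call of *Mcpt9*, at a mean of 0.203, was lost with Gm genes kept, with thinned cells, and without WT mouse 1 or the first reference library. For 12 of the 13, *Cpa3* apart, the reference held no transcript at all. The level of *Mcpt4* was at least 14213-fold higher than the reference in each mouse, that of *Cma1* at least 6092-fold, that of *Tpsb2* at least 3451-fold and that of *Tpsab1* at least 890.4-fold. *Cpa3* had 1 reference transcript, a ratio of 20544 with a counting interval from 3688 to 811545. These ratios carry the sort with them, since the reporter followed the *Cma1* promoter.

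Lesser proteases formed a graded series. *Tpsab1* was at 25.9, 18.5 and 25.1 in WT mice 1, 2 and 3. The chymase gene *Cma2* was at 4.64, 8.10 and 8.28, the membrane-anchored tryptase *Tpsg1* at 7.002, 5.61 and 6.82, and cathepsin G (*Ctsg*) at 4.52, 3.15 and 4.73. Neighbours in this order, *Cma2* and *Tpsg1*, overlapped between mice. Granzyme B (*Gzmb*) was low and uneven, at 1.32, 0.445 and 2.64. *Mcpt8*, a protease of basophils, was at 0.164, 0.157 and 0.243, and *Mcpt2*, of mucosal MCs, at 0.0351, 0.131 and 0.0573. Protease genes lie in families of similar sequence, and the authors discarded reads with more than 1 place, so that levels of close copies such as *Tpsb2* and *Tpsab1* may be understated.

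The promoters of the leading genes are shown because these genes were high together. RefSeq sequences of the 250 bases before the start (GRCm38.p6) were found for 14 of the 20 genes with the largest fold over the reference, and were searched on both strands for 3 motifs, whose matches were counted separately even where they shared bases. The GATA motif was spelled AGATAA, or else with T as its first letter as TGATAA. The E-box was spelled CATGTG, or else as the palindromic form CACGTG. The TATA motif was spelled TATAAA. Of these 14 genes, 5 held the GATA letters, against 18.8% of 27025 genes, 4 the E-box letters, against 19.8%, and 4 the TATA letters, against 14.3%. In *Cpa3* (chr3:20242182-20242431, minus strand) a GATA motif lay 46 bases before the start and TATA motifs 31 and 242 bases before it. In *Mcpt4* (chr14:56062311-56062560, minus strand) a GATA motif lay 103 and a TATA motif 32 bases before the start, and in *Ms4a2* (chr19:11623720-11623969, minus strand), a gene of the IgE receptor, GATA motifs lay 11, 37 and 224 bases before it. *Cma1* (chr14:55944676-55944925, minus strand) held none of these letters in this window. The counts describe letters and not sites of binding. Capitals mark the motifs, which appear as their reverse complement where they lie on the other strand.
Cpa3: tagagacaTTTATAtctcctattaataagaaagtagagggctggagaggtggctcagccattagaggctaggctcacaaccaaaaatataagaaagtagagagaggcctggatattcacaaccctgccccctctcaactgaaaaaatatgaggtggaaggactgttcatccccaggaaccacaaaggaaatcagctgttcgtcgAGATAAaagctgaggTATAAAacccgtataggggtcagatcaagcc
Mcpt4: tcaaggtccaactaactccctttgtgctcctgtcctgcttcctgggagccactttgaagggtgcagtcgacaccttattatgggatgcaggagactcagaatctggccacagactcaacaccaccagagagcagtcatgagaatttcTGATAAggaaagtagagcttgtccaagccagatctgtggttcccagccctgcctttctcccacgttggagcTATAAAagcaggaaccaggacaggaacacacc
Cma1: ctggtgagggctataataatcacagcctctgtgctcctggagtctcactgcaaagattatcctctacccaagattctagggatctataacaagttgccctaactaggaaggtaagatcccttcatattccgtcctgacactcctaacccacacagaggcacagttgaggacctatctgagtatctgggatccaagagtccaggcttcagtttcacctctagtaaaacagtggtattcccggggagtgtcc
Ms4a2: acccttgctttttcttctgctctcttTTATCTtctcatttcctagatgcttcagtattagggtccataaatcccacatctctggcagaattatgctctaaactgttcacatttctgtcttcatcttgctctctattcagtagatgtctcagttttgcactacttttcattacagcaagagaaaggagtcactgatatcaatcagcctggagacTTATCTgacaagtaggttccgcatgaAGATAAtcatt

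Of the genes for serglycin and for the synthesis of its heparin and chondroitin sulfate chains, the core was high and the enzymes were low. *Srgn* was at 31.6, 43.2 and 43.7 (39.5 ± 6.83), 135-fold above the reference with a counting interval from 100.2 to 188. *Ndst2*, the sulfotransferase on which MC heparin depends, was at 3.64, 2.01 and 2.03, and 33.5-fold above the reference (18.8 to 67.2). *Hs3st1*, which adds 3-O sulfate, was at 1.90, 0.750 and 0.730, while *Ext1*, which polymerizes heparan chains, was at 3.75, 3.04 and 3.46 against 1.16 in the reference. Of 15 members compared, 5 were called higher (background 7.78%) and 10 neither. With Gm genes kept, *Hs6st1* and *Hs3st1* lost their calls (log2 folds of 2.06 and 2.58). With thinned cells or a minimum of 100 transcripts, *Hs6st1* and *Chst11* lost theirs. The 15 had a median log2 fold of 1.57 against 0.07 for all genes. Most listed enzymes therefore stayed within the 4-fold limits.

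Amine synthesis and storage was carried by nearly the whole list: 6 of 7 genes compared were called higher (background 7.78%). *Hdc* had 2 transcripts in the reference, a ratio of 4329 (1199 to 35757). *Slc6a4*, the plasma membrane serotonin transporter, was at 10.8, 12.8 and 12.2, at least 516-fold above the reference. *Slc18a2*, which loads amines into vesicles, was at 8.54, 4.66 and 4.22, with WT mouse 1 above the others. Serotonin synthesis was represented at lower levels, by *Tph1* at 2.46, 1.27 and 1.70 and by *Ddc* at 1.84, 2.08 and 2.25. *Maob*, which degrades amines, was at 3.91, 2.73 and 2.81, whereas *Maoa* had a mean of 0.403 in MCs and 0.410 in the reference.

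All 3 chains of FcεRI were found in each mouse, at unequal levels. *Fcer1g*, the signalling γ chain shared with other Fc receptors, was at 11.9, 19.5 and 20.1, and the β chain *Ms4a2* at 11.7, 11.3 and 10.3 (11.1 ± 0.749). The IgE-binding α chain *Fcer1a* was at 2.44, 2.77 and 2.74 (2.65 ± 0.183), below the other chains in each mouse. Neither *Fcer1a* nor *Ms4a2* had a transcript in the reference, so that *Ms4a2* was at least 494-fold and *Fcer1a* at least 117-fold higher. Of the signalling genes, the adaptor *Lat* was at 2.55, 4.71 and 4.02, the phosphatase *Inpp5d* at 3.83, 2.89 and 2.69, and the adaptor *Lcp2* at 2.38, 2.62 and 2.12. The kinases *Lyn*, *Fyn*, *Syk* and *Btk* had means of 1.56, 2.02, 1.03 and 1.36. In the list 11 of 14 genes were called higher (background 7.78%), and *Fyn*, *Plcg1* and *Gab2* were called neither. The call of *Lat2*, at a mean of 0.107, was lost when any 1 of the WT mice or reference libraries was left out.

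**Figure D2:**
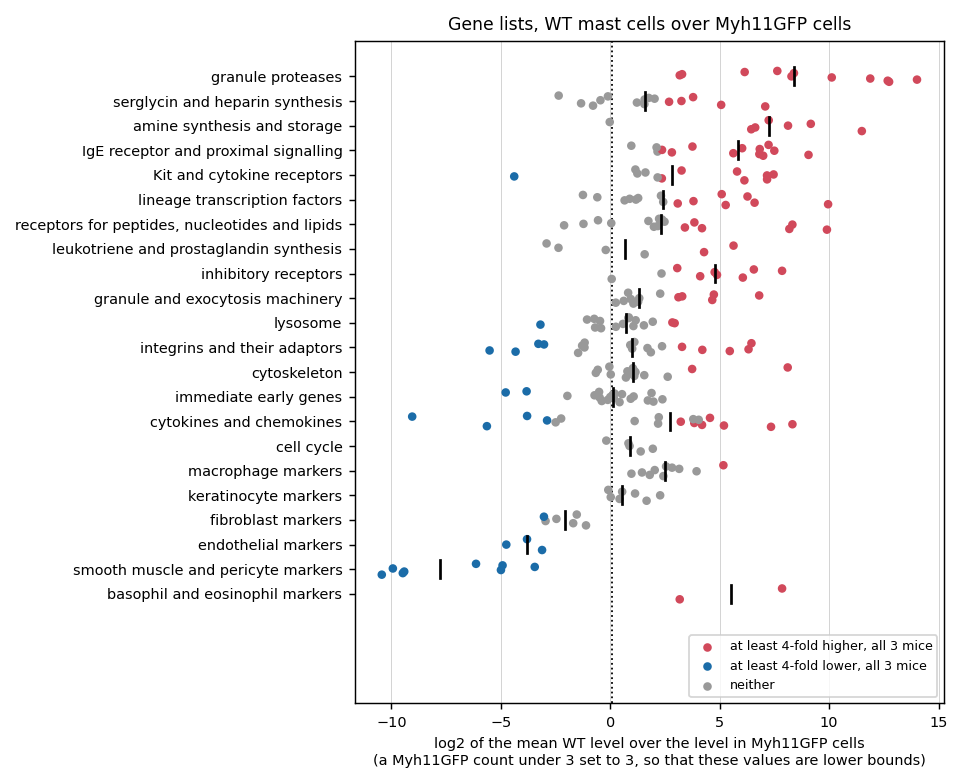
Log2 fold of WT MCs over the reference for each gene compared, by gene list, with 1 point per gene, a black bar at the median of each list and a dotted line at the median of all 9901 genes (0.07). Genes with fewer than 3 reference transcripts are set against 3. All 11 granule proteases lie to the right of the 4-fold limit and all 8 smooth muscle and pericyte markers to the left of the lower one.

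Cytokine receptors were led by 3 genes. *Kit* was 70.0-fold above the reference (47.1 to 109). The common β chain *Csf2rb*, of the receptors for IL-3, IL-5 and GM-CSF, was at 14.4, 8.20 and 10.3, and *Il1rl1*, the IL-33 receptor ST2, at 13.2, 6.204 and 6.33. All 3 were highest in WT mouse 1. *Il2rg*, the common γ chain, was at 5.36, 5.78 and 6.77, *Tgfbr1* at 4.41, 2.99 and 2.76 and *Il7r* at 1.10, 1.26 and 1.10. In the list 7 of 12 genes compared were called higher (background 7.78%), and *Il13ra1*, with a mean of 0.0514 against 1.08, was called lower (background 8.89%).

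Among lineage transcription factors, *Gata2*, which MC identity requires, was the most abundant by a wide margin at 26.4, 16.0 and 19.6 (20.7 ± 5.26). The reference held 1 transcript of it, a ratio of 2975 (534 to 117528). *Tal1*, a partner of GATA factors, was at 3.75, 3.07 and 3.25, *Mitf* at 2.11, 1.70 and 2.02, and *Ikzf1* at 1.69, 1.42 and 1.72. *Gata1* and *Spi1*, which define erythroid and myeloid cells as well as MCs, were lower, with means of 0.806 and 0.711. Of 15 factors compared, 7 were called higher (background 7.78%) and none lower, and *Zeb2* was at 2.87 in MCs and 4.33 in the reference.

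Receptors for peptides, nucleotides and lipids were few at high level. *Mrgprb1* was at 21.97, 19.3 and 18.4 (19.9 ± 1.84), at least 886-fold above the reference, and *Mrgprb2*, the receptor for substance P and other cationic peptides, at 7.18, 5.40 and 5.58. *Mrgprb1* exceeded *Mrgprb2* in each mouse. The adenosine A3 receptor *Adora3* was at 7.94, 6.42 and 5.64, and the ATP-gated channel *P2rx1* at 2.79, 2.74 and 3.12. The other 18 genes of this list in the tables had a mean of no more than 1.02 each. Of 16 compared, 6 were called higher (background 7.78%).

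For lipid mediators, the enzyme that makes prostaglandin D2 stood alone: *Hpgds* was at 3.63, 2.48 and 2.16, 49.6-fold above the reference (25.2 to 115). *Alox5* and *Ltc4s*, which lead to leukotriene C4, had means of only 0.0444 and 0.0572, and *Ptgs1* and *Ptgs2*, the cyclooxygenases, of 0.0290 and 0.112. At these levels few transcripts stand behind each value. *Alox5ap*, the 5-lipoxygenase activating protein, was called higher with a mean of 0.407. Outside the lists, *Cyp11a1*, the enzyme that opens steroid synthesis from cholesterol, was at 15.2, 15.6 and 12.6, at least 607-fold above the reference.

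In the list of inhibitory receptors, 7 of 9 genes compared were called higher (background 7.78%). *Lilr4b*, a related receptor gene that is not in the list, was at 28.1, 14.4 and 15.5, and the listed *Cd200r3* at 5.99, 3.84 and 4.60. A place in the list does not show that a receptor inhibits. *Fcgr2b*, the inhibitory IgG receptor, was at 1.53, 1.81 and 2.76, *Milr1* (allergin-1) at 1.99, 1.80 and 2.10, *Cd33* at 1.95, 1.89 and 1.66 and *Pirb* at 1.52, 1.28 and 1.36. *Milr1*, *Cd33* and *Pirb* differed by little between mice, and *Cd200r3* and *Fcgr2b* by more. *Lilr4b* was 1.95 times as high in WT mouse 1 as in WT mouse 2. *Clec10a*, a C-type lectin better known from macrophages and dendritic cells, was at 16.4, 12.7 and 11.3, a ratio of 1935 to its 1 reference transcript (347 to 76437). *Plek* and *Sla*, signalling proteins of blood cells, were also among the 20 largest folds, at means of 20.1 and 8.00.

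The machinery of granules and exocytosis was less particular. *Cd63*, a membrane protein of granules, was at 9.52, 10.9 and 10.6 against 5.87 in the reference, within the limits. *Rab27b*, a GTPase of granule docking, was at 4.97, 3.25 and 3.42, 112-fold above the reference (47.9 to 345), *Stx3* at 3.42, 2.49 and 2.52 and *Stxbp2* at 2.47, 2.35 and 2.58. The vesicle SNARE genes *Vamp2* and *Vamp8* had means of 1.27 and 1.12 and were not called. In all, 5 of 13 genes compared were called higher (background 7.78%). Of lysosomal genes 2 of 16 were called higher, near the 7.78% of all genes, among them *Hexa*, a lysosomal hydrolase, at a mean of 1.44, and 1 lower (*Ctsl*, 0.369 against 3.36). *Hexa* lost its call with Gm genes kept, at a log2 fold of 2.26.

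Integrins and their adaptors, which link cells to matrix, went in both directions. *Itgb1*, the β1 chain, was at 3.01, 3.12 and 3.26 against 8.67 in the reference, and *Tln1*, which links integrins to actin, at 4.53, 5.92 and 6.70 against 3.04. Both were called neither. *Itga2b* was at 4.03, 3.13 and 4.48, 79.8-fold above the reference (38.7 to 199), *Itga9* at 1.79, 1.46 and 1.80, and the hematopoietic kindlin *Fermt3* at 1.56, 1.94 and 1.98, at least 74.7-fold above a reference without transcripts. Its relative *Fermt2* had a mean of 0.389 against 3.79 and was called lower. Of 19 genes compared, 5 were higher (background 7.78%), 4 lower (background 8.89%) and 10 neither. *Tln2*, called lower, lost its call in 11 of the alternatives, among them those without WT mouse 2, without members that carried other types' markers, and with thinned cells.

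Cytoskeletal genes were abundant in both kinds of cell. *Cfl1* was at 9.11, 15.6 and 15.7, *Actg1* at 16.5, 21.1 and 19.7 and *Arpc2* at 8.59, 12.3 and 11.99. Of 15 genes 2 were called higher (background 7.78%), *Coro1a* and *Rac2*, both of blood cells. *Lmna* passed the limit without WT mouse 1 (log2 fold 2.88), with thinned cells or as a mean over cells. *Coro1a* lost its call with thinned cells. *Rac2* was at 5.48, 5.76 and 6.00, with 1 transcript in the reference and a ratio of 828 (149 to 32698).

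Immediate early genes, which respond to stimuli and also to the digestion of tissue, were high in MCs and in the reference alike. *Jun* was at 32.3, 24.2 and 40.1 against 9.78, *Jund* at 26.3, 38.5 and 45.3 against 7.03, and *Fosb* at 17.3, 21.6 and 22.8 against 5.23. *Fos* was at 22.2, 9.67 and 15.7 against 11.8, and *Nr4a1* at 21.1, 12.6 and 16.9 against 15.6. None of 20 was called higher and 2 were called lower, *Btg2* and *Myc*, near the 8.89% of all genes. *Jund*, at a log2 fold of 2.38, passed the limit without WT mouse 1 (2.57), without either of 2 reference libraries, with thinned cells and as a mean over cells. *Fos* was uneven between cells, with medians of 2.60, 0 and 0 and 90th percentiles of 70.4, 33.5 and 55.2 over the cells of WT mice 1, 2 and 3. Since ears of both kinds were digested, the effect of digestion cannot be told apart from the state in the tissue.

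Cytokine and chemokine transcripts were present in untreated MCs. *Ccl7* was highest at 25.2, 17.01 and 21.8 against 4.59 in the reference, and was not called because WT mouse 2 stayed under 4-fold. *Tnf* was at 5.49, 6.67 and 7.86, a ratio of 481 to 2 reference transcripts (133 to 3970). *Il13* was at 2.68, 2.91 and 4.57 with none in the reference. *Csf1* was at 5.68, 4.74 and 7.12, while *Il4* had a mean of 0.763 and *Il5* of 0.00390. The reference led for other genes. *Il6* was at 1.23, 0.924 and 0.587 against 45.5, *Cxcl1* at 0.152, 0.0872 and 0.158 against 70.2, and *Ccl2* at 4.13, 5.77 and 7.97 against 28.2. In the list 7 of 18 genes compared were called higher (background 7.78%) and 4 lower (background 8.89%). Of these, *Il1b*, at a log2 fold of 4.19, lost its call without WT mouse 2 (2.95), without the members that carried other types' markers (3.52), with Gm genes kept and with thinned cells. Thinning also took the higher calls of *Il4* (1.96), *Csf2* (0.952), *Tgfb1* (2.68) and *Ccl4* (0.770), and the lower call of *Areg* (-2.40). *Tgfb1* lost its call with Gm genes kept as well (2.55), and *Csf2* and *Areg* theirs with a minimum of 100 transcripts. *Calca*, the gene of calcitonin and the peptide CGRP, was at 0.937 in WT mouse 1 and at 0.0349 and 0.0573 in WT mice 2 and 3.

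Genes of the cell cycle were near the limit of detection. *Mki67* was at 0.328, 0.533 and 0.286, with a transcript in 45 of 880 members (5.11%, exact binomial interval 3.75 to 6.78) and in 4.85% of the deeper reference cells. After thinning to 500 UMIs it was seen in 1.67% of members and in 0 of 318 reference cells (exact upper limit 1.15%). Of 15 listed genes 11 had a mean under 0.1, and none of 5 compared was called.

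The share of cells in which a gene was seen depended on depth, so it was taken after each cell was thinned to 500 UMIs outside Gm genes, with 838 members and 318 reference cells deep enough. After thinning, *Mcpt4* was seen in 99.5% of members, *Hdc* in 84.1%, *Srgn* in 77.7% and *Mrgprb1* in 59.5%. *Kit* was seen in 38.9% of thinned members (35.6 to 42.3, exact binomial) and in 68.1% before thinning, against 0.943 and 5.76% of the reference. *Ms4a2* was seen in 38.9%, *Fcer1a* in 10.5% and *Il13* in 12.9%, with 0 of 318 reference cells for each (exact upper limit 1.15%). *Il6* was seen in 3.22% of members and 49.7% of the reference. *Srgn* was seen in 62.2% of WT mouse 1 and in 86.1 and 87.0% of WT mice 2 and 3, whereas *Kit* was seen in 38.8, 42.2 and 35.2%. Intervals cover counting error only. The 96 barcodes outside the set with most transcripts of each WT library also held *Cpa3*, at 40.0 to 216 transcripts. Those of the reference libraries held none. Of the members, 2 lay in such barcodes, both from WT mouse 2, as did 2 cells of each reference library. The part of such stray transcripts in the shares was not tested.

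**Figure D3:**
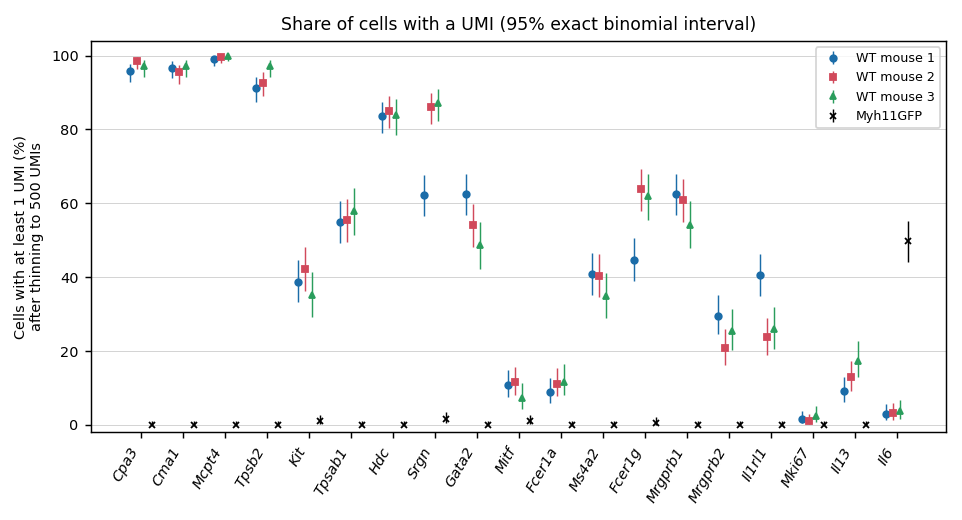
Share of cells with a transcript, in percent, after thinning to 500 UMIs outside Gm genes, for members of each WT mouse and for the reference, with exact binomial 95% intervals. *Srgn* and *Fcer1g* are lower in WT mouse 1, and *Il6* is higher in the reference at 49.7%.

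Cells within a mouse spread widely in protease level. The 13 proteases together took a median of 662, 767 and 814 transcripts per 10000 in the cells of WT mice 1, 2 and 3, with 10th percentiles of 282, 474 and 553 and 90th percentiles of 988, 1051 and 1163. *Mcpt4* had a 10th percentile of 121, 231 and 280 and a 90th of 441, 537 and 625 in the cells of WT mice 1, 2 and 3. For *Kit*, medians were 9.26, 8.71 and 7.21 and the 10th percentile was 0 in each mouse. The variance of thinned UMIs between cells divided by their mean was taken over the 1623 genes at a mean of 1 or more. It had a median of 1.04 and a 90th percentile of 1.25, where counting alone would give 1. Thinned cells hold few UMIs of most genes, and the ratio then stays near 1 even for a gene that varies between cells. These values therefore do not show whether most genes varied by more than counting. The 10 genes with the highest ratio, as the median over mice, included *Col1a1* (14.3), *Col1a2* (8.45) and *Sparc* (6.81), genes of fibroblasts. *Mid1* (4.98) and *Mme* (5.00) were also among them, *Mme* with 15.7, 1.80 and 5.00 in WT mice 1, 2 and 3. The others were *RP23-341H2.4* (9.39), *mt-Rnr2* (7.57), *A430073D23Rik* (6.61), *Kcnq1ot1* (4.92) and *mt-Co1* (4.16). The study treats *Kcnq1ot1* as a possible marker of low-quality cells. No granule protease was among the 10.

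Transcripts of other cell types were found in part of the members and of the libraries. The study set aside a very small group of cells with macrophage features and kept fewer MCs than passed the rule here. Among the members, no cell was removed for such markers except where stated. Summed macrophage markers, 11 genes with none at 0 in all mice, were at 2.26, 42.3 and 17.2 transcripts per 10000 in WT mice 1, 2 and 3. The 6 fibroblast markers were at 20.2, 82.7 and 54.0, and the 7 keratinocyte markers at 7.18, 30.4 and 1.76. A few libraries carried most of them. Fibroblast markers reached 435 in library 1 of WT mouse 2 and 201 in library 2 of WT mouse 3, with a median of 3.05 over the 12 libraries. Macrophage markers reached 93.2 in library 3 of WT mouse 2. Markers of endothelium and T cells were near 0, at sums of no more than 0.269 and 0.0859, and those of smooth muscle and pericytes at no more than 0.616, against 196 in the reference. The 5 basophil and eosinophil markers in the tables summed to 6.19, 3.99 and 4.85, against 0 in the reference, nearly all of it *Cd200r3*. Both members compared, *Cd200r3* and *Mcpt8*, were called higher (background 7.78%), and *Epx* and *Ccr3* were at 0 in all 3 mice. There were 61 members (8, 38 and 15 by mouse) with more than 1% of transcripts from other types' markers. Without them, fibroblast markers fell to 1.39, 5.71 and 3.05 and macrophage markers to 2.25, 11.4 and 3.30.

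**Figure D4:**
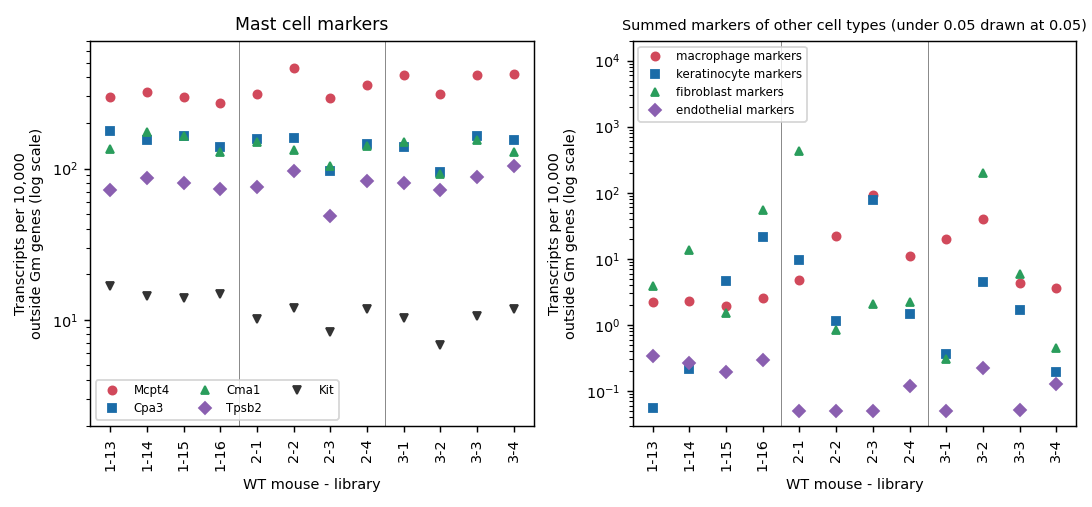
Levels by library for the 12 WT libraries, in transcripts per 10000 outside Gm genes on a log axis, for MC markers and for summed markers of other cell types. MC markers vary less than the others, and fibroblast markers reach 435 and 201 in 2 libraries.

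MC markers were far steadier. Over the 12 libraries *Cpa3* ran from 95.1 to 177 (median 155), *Mcpt4* from 269.7 to 464 (317), *Tpsb2* from 48.2 to 103 (80.2) and *Kit* from 6.79 to 16.8 (11.8). Leaving out the 61 cells with other markers gave *Cpa3* at 164, 155 and 153 and *Mcpt4* at 310, 396 and 425, above the values with them in each mouse. The order of the markers was the same.

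Between mice, most genes were close. For the 1301 genes at 1 or more in every mouse, the highest mouse was a median of 1.33 times the lowest, and 914 of them (70.3%) were under 1.5 times. Over 2 times were 86 genes, and over 5 times were 3 among these 1301. Of genes with a mean of 5 or more, the 10 that varied most were led by *H2-Aa*, an MHC class II gene of macrophages and dendritic cells, at 0.410, 14.3 and 2.43, and by *Col1a1* at 4.06, 35.9 and 26.1. Without the 61 cells *H2-Aa* was at 0.397, 4.69 and 0.375 and *Col1a1* at 0.286, 1.98 and 1.22. Without the 3 libraries with the most fibroblast or macrophage transcripts *Col1a1* was at 4.06, 0.427 and 1.13, so that WT mouse 1, lowest with all libraries, was then the highest. Both genes are in the marker lists that picked those cells.

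Another set of genes set WT mouse 1 apart with or without those cells. *Actb* was at 21.8, 70.1 and 71.7, and at 22.4, 68.9 and 73.0 without them. *Lrrc58* was at 3.50, 16.9 and 14.3 and *S100a11* at 1.94, 10.2 and 5.11. *Lmna* was at 20.1, 37.4 and 42.3 and *Sqstm1* at 21.9, 43.2 and 44.2, again with WT mouse 1 lowest. *Malat1*, a nuclear long noncoding RNA, went the other way at 83.5, 34.0 and 39.0, and at 85.1, 37.5 and 39.6 without the cells. The libraries of WT mouse 1 are numbered 13 to 16 and those of the others 1 to 4, and mouse and library preparation cannot be told apart. *Mid1* was high in WT mouse 3 alone, at 5.68, 7.29 and 18.0.

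**Figure D5:**
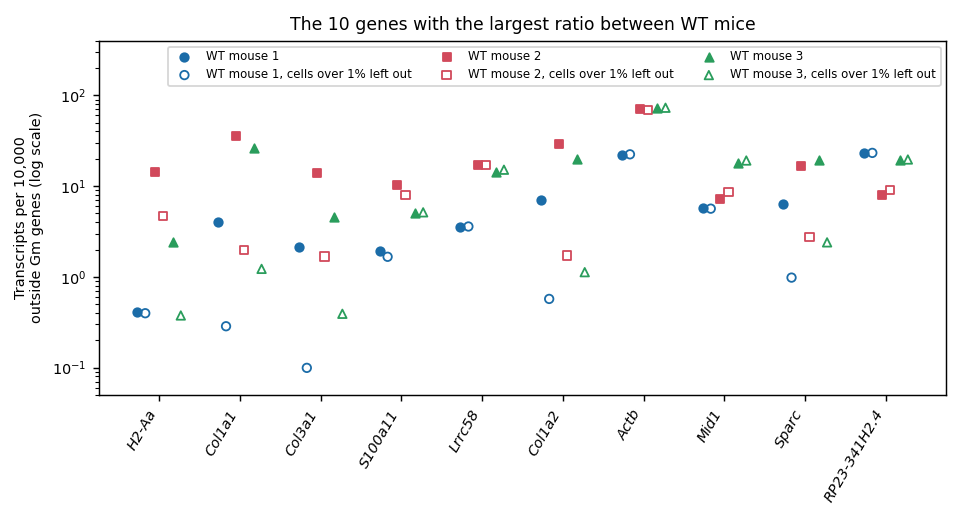
Levels of the 10 genes with the largest ratio between WT mice, among genes at a mean of 5 or more, in transcripts per 10000 outside Gm genes on a log axis, with 1 point per mouse, with all members and without the 61 cells that carried other types' markers. *Actb* and *Lrrc58* keep WT mouse 1 lowest in both, while *Col1a1* drops in all 3 mice.

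What MCs lacked, beside the reference, was the contractile programme. All 8 smooth muscle and pericyte markers were called lower (background 8.89%). These calls carry the sorts with them. The reference was sorted as CD45- cells by the *Myh11* reporter, whose gene is among the 8, and MCs were sorted as CD45+. *Rgs5*, of pericytes, was at 0.0234, 0.254 and 0.0716 against 114, and *Acta2*, smooth muscle actin, at 0, 0.0436 and 0.0429 against 40.1, which is 978-fold and 1389-fold lower by the mean. The 10 largest folds in this direction also held *Myl9*, *Sparcl1*, *Adamts4*, *Mustn1*, *Myh11*, *Tagln*, *Cxcl1* and *Mcam*, from 514-fold to 1314-fold lower, each on at most 13 transcripts in any WT mouse. The reference also carried fibroblast genes, with *Col1a1* at 47.5 and *Dcn* at 23.3, so that it was not smooth muscle alone.

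The only test that replicates allowed was of WT against Tln1KO MCs. With limma and Benjamini-Hochberg adjustment, 0 of 8585 genes (0.0%) differed, 513 had an unadjusted p under 0.05, and the voom form of the test called 2. The smallest p was that of *Itga2*, the integrin α2 chain, at 0.433, 0.349 and 0.372 in WT and 1.13, 0.801 and 0.922 in Tln1KO mice. Its log2 difference was 1.31 (SE 0.20) and its adjusted p was 0.398 by limma, with groups that did not overlap. *Zcchc6* was next among the higher genes (1.11, SE 0.20), and *Sparc* (-3.67, SE 0.63), *Mfap4* (-3.33, SE 0.60) and *Lrp1* (-2.53, SE 0.46) had differences of the opposite sign, each at an adjusted p of 0.398. Fibroblast markers moved with these, at sums of 10.5, 1.96 and 0.976 in Tln1KO mice against 20.2, 82.7 and 54.0 in WT, and their part in the result was not tested. Without cells that held other types' markers, 0 genes were called and 449 had an unadjusted p under 0.05. Single mice decided the count: without Tln1KO mouse 1, 14 genes were called, all lower in Tln1KO, among them *Col1a2*, *Dcn*, *Fn1* and *Sparc*, and without WT mouse 1 the 1 gene called was *C1qb*, also lower.

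Summed over the members of each mouse, the genes that define MCs were at like levels in both genotypes. A p that misses the threshold does not show that they are equal. The study reported *Mcpt4*, *Cpa3*, *Cma1* and *Mcpt6* (*Tpsb2*) as lower in Tln1KO MCs, within some of its clusters and by a test over cells. Those clusters were not used here, so that the comparisons do not cover the same cells. *Mcpt4* was at 358, 288 and 231 in Tln1KO mice (log2 difference -0.22, SE 0.33, adjusted p = 0.938 by limma). *Kit* was at 15.4, 10.9 and 11.7 (0.16, SE 0.22, adjusted p = 0.922) and *Hdc* at 72.2, 63.7 and 51.2 (0.08, SE 0.24, adjusted p = 0.974). *Tln1* itself was at 5.58, 4.32 and 3.63 in Tln1KO against 4.53, 5.92 and 6.70 in WT (-0.31, SE 0.24, adjusted p = 0.871). The tags lie at 3′ ends, and their place relative to the deleted part is not given in the sources used here, so that this value does not check the labels.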

How the data were processed

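Ear skin cells of 3 WT and 3 Tln1KO mice and of Myh11-GFP mice were measured by mCEL-Seq2, a plate method in which each well has a cell barcode and each captured 3′ end a UMI of 6 bases. The number after the genotype in a library's label was taken as the mouse. The submitters' processing notes name bcl2fastq 2.17.1.14, BWA 0.6.2-r126 and mm10. The authors mapped reads to ENCODE VM9 gene models, merged overlapping loci, discarded reads with more than 1 place, counted UMIs and used a binomial correction to turn UMIs into transcripts. Values as deposited are estimated transcript counts, not scaled for depth and not pooled, and each went back to a whole UMI for 4096 possible UMIs. A file check could not read the tables as counts, so the test is limma and not a count test.

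Cells with more than 1000 transcripts and at least 1 *Cpa3* transcript were summed per mouse and scaled to 10000 transcripts outside Gm genes. WT library totals ran from 340304 to 592130 transcripts. No cell exceeded the authors' limit of 2% *Kcnq1ot1*. Doublets had been excluded in the sort and no doublet caller was run. The authors' clusters were not used here. A gene was called against the reference where each mouse was 4-fold away and at least 30 transcripts were seen, with a floor of 3 reference transcripts over the group. Intervals are exact, at 95%, and cover counting error only. WT and Tln1KO mice, the replicates, entered a mean-variance trend fit (R 4.3.3, limma 3.58.1). Its input was the log2 level per 1000000 transcripts, with a pseudocount of 1 and TMM factors from code written for this purpose, for genes with 10 transcripts in 3 mice, and adjusted by Benjamini-Hochberg at 0.05. The test was tried on simulated data. Other steps used Python 3.11.15.

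The members and gene lists were chosen with earlier results of these data known. Genes were named by rule: the 25 highest means, list members at a mean of 1 or that define a list, the 20 largest folds up and 10 down, the 10 that varied most between mice and between cells, the 5 smallest p between genotypes, and checks. Members under a mean of 1, such as *Mcpt9* and *Lat2*, are named where a count turned on them, after their values were seen. Of the listed genes, *Mcpt1*, *Csf2rb2*, *Mrgprb13*, *Lilrb4a*, *Lilrb4*, *Vamp7*, *Lyz2*, *Trac*, *Trbc2* and *Prg2* were not analysed here, and a further listed gene is not reported here. Gene positions are from GENCODE M21. Alternatives covered the scale, cells, depth, filters, test, mice and libraries.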

Additional observations from a re-analysis of the deposited data

Results flagged for a closer look

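In 30 groups of 4 libraries of 1 WT mouse, marker levels were searched for a library far from the other 3 by Dixon's criterion, which chance meets in about 1 of 20 groups, and 4 were found. Fibroblast markers summed to 435 transcripts per 10000 in library 1 of WT mouse 2, against 0.838 to 2.22 in the others of that mouse, and to 201 in library 2 of WT mouse 3, against 0.302 to 5.94. Keratinocyte markers summed to 77.0 in library 3 of WT mouse 2, against 1.14 to 9.66. *Mcpt4* was at 312.7 in library 2 of WT mouse 3, below the 412 to 422 of the others, and this is the library with 201 of fibroblast markers. The 96 barcodes outside the set with most transcripts of a library held *Cpa3* in the WT libraries, from 40.0 to 216 transcripts, and 0 in the Myh11-GFP libraries. Among these barcodes, 2 of WT mouse 2 passed the rule and were counted as members.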

How the results depend on the processing

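With Gm genes kept in the totals, 489 genes were higher than the reference, 547 were at 1 or more in each WT mouse, the protease share was 3.84%, and *Cpa3*, *Cma1*, *Mcpt4*, *Tpsb2* and *Kit* were at 73.5, 70.4, 178, 40.2 and 6.03. *Apoe*, at a log2 fold of 2.15, passed the limit without WT mouse 1 (2.28) or 1 reference library (2.45), with thinned cells (2.71) and as a mean over cells (2.48). With cells thinned to 500 UMIs, 340 genes were higher and 282 lower and *Cpa3* was at 129, and as a mean over cells *Cpa3* was at 128. With a minimum of 100 transcripts 531 genes were lower, since fewer genes were compared. In alternatives chosen after seeing the data, leaving out members with over 1% of other types' markers gave *Cpa3*, *Cma1* and *Tpsb2* at 157, 150.4 and 86.0 and a protease share of 8.18%, and leaving out the 3 libraries with most fibroblast or macrophage transcripts gave *Tpsb2* at 86.0 and a share of 8.06%.

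Without single WT mice, 777 to 841 genes were higher and 952 to 979 lower than the reference, 1399 to 1412 were at 1 or more in each mouse, and the protease share was 7.22 to 7.60%. *Cpa3* was then at 136 to 148, *Cma1* at 129 to 141, *Mcpt4* at 323 to 370, *Tpsb2* at 75.3 to 81.9 and *Kit* at 10.0 to 12.6. Without single reference libraries, 720 to 780 genes were higher and 800 to 826 lower. Between genotypes, limma called 0 to 1 genes without single WT mice and 0 to 14 without single Tln1KO mice, and limma voom called 2 (*Fstl1* and *Serpinf1*, lower in Tln1KO). With the mouse number as a replicate block it called 0 genes, with 443 at an unadjusted p under 0.05. Mice of the same number did not deviate together, with correlations over 8585 genes of 0.15, -0.21 and -0.27. The highest correlation, 0.41, was between WT mouse 2 and Tln1KO mouse 3. With so few mice this cannot show whether mice shared a litter or a batch.

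No called fold changed sign. Without the 3 libraries the order of the WT mice turned for *Col1a1*, *Col1a2*, *Col3a1* and *Sparc*, with WT mouse 1 then highest. Of the folds of named genes over the reference, 2747 values kept their call over the alternatives, 91 of 40 genes lost it and 14 of 4 genes gained it. The causes were not tested. Genes near 1 transcript per 10000 rest on few transcripts per mouse, and folds whose reference was under the floor gave no value where the limit was under 1.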
